A study of Mus musculus with 42 samples.

Results

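Oxidative phosphorylation is carried out by complexes of the inner mitochondrial membrane. Genes of these complexes were taken by symbol (the Nduf, Uqcr, Cox, Atp5, mt-Nd, mt-Co, mt-Atp and mt-Cytb families) wherever the deposited FPKM (a read abundance scaled to transcript length and library size) of untreated WT macrophages was at least 1. This gave 87 of 21951 genes. They comprised 71 nuclear genes of core or accessory subunits, of which 35 belong to complex I, 8 to complex III, 14 to complex IV and 14 to complex V. A further 12 genes lie on mitochondrial DNA (mtDNA). The remaining 4 symbols were 2 pseudogenes (Atp5k-ps2 and Atp5l2-ps) and 2 genes named for ATP synthase, Atp5s and Atp5sl, which RefSeq now calls Dmac2l and Dmac2.

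RNA came from bone marrow-derived macrophages (BMDMs) of C57BL/6 mice aged 7 to 9 weeks. ΔM mice lack tristetraprolin (TTP, encoded by Zfp36), an mRNA-destabilizing protein that binds AU-rich elements, because LysM-Cre deletes the gene in myeloid cells. WT littermates served as the comparison. Cells were left untreated (ΔM 0 h, WT 0 h) or received lipopolysaccharide (LPS, 10 ng/ml) for 3 h (ΔM 3 h, WT 3 h) or 6 h (ΔM 6 h, WT 6 h), and at 3 and 6 h the medium was exchanged for fresh medium with actinomycin D (5 µg/ml), which blocks transcription, for 0, 45 or 90 min. The 42 libraries formed 14 groups of 3 biological replicates, but the deposited tables hold 1 value per gene and group, pooled over replicates by the authors. No spread or depth over replicates is given for these values, the authors' own test columns were not used, and every comparison below is a description of pooled values.

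Zfp36 was listed at 5.98 FPKM in ΔM against 118 FPKM in WT at 0 h, at 16.3 against 1017 FPKM at 3 h and at 31.0 against 1782 FPKM at 6 h. All 7 macrophage markers were listed above 5 FPKM in all 6 groups, with sums of 4926 to 9819 FPKM in ΔM and 6331 to 12215 FPKM in WT. Mertk was the lowest, at 10.8, 11.4 and 11.2 FPKM in ΔM and 6.75, 5.36 and 7.78 FPKM in WT at 0, 3 and 6 h. Lyz2, the gene whose promoter drives the Cre, was lower in ΔM, at 4067, 3098 and 2044 FPKM against 6936, 4841 and 3541 FPKM in WT. Cd68 stood at 2175 to 4880 FPKM in ΔM and 2019 to 4477 FPKM in WT, while the summed markers of T cells, B cells, neutrophils, fibroblasts, erythroid cells and dendritic cells reached at most 3.36 FPKM for any of these types.

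Complexes I, III and IV pass electrons from NADH and ubiquinol to oxygen and pump protons, and complex V, the ATP synthase, uses the proton gradient to make ATP. Complex II, which feeds electrons from succinate, has only nuclear subunits, whereas complexes I, III, IV and V combine nuclear-encoded subunits with subunits translated inside the organelle from mtDNA. Activated macrophages are known to shift towards glycolysis. In bulk RNA, fewer cells of a type and less RNA per cell cannot be told apart.

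In untreated macrophages the nuclear subunit mRNAs ranged from 1.26 to 599 FPKM in ΔM and from 1.49 to 532 FPKM in WT, with medians of 59.3 FPKM in ΔM and 63.6 FPKM in WT. Together they made up 1.02% of the summed FPKM of all genes in ΔM and 1.04% in WT. The mtDNA-encoded mRNAs made up 4.88% in ΔM and 5.55% in WT. Within complex I the most abundant mRNA was Ndufa3, an accessory subunit, at 599 FPKM in ΔM and 516 FPKM in WT, and the least abundant was Ndufs4, at 2.87 FPKM in ΔM and 2.85 FPKM in WT. In complex III the range ran from Uqcrb (23.9 FPKM in ΔM, 21.3 FPKM in WT) up to Uqcrc1, a core protein (171 FPKM in ΔM, 194 FPKM in WT). In complex V it ran from Atp5g2 (8.84 FPKM in ΔM, 8.57 FPKM in WT) up to Atp5b, the catalytic beta subunit (440 FPKM in ΔM, 441 FPKM in WT). The genes of 1 complex thus differed far more from each other than any of them did between the genotypes at 0 h.

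Complex IV has tissue-specific subunit isoforms, and in these cells 1 isoform dominated each pair. Cox4i1 was listed at 517 FPKM in ΔM 0 h and 532 FPKM in WT 0 h, against 0.19 FPKM in ΔM and 0.31 FPKM in WT for Cox4i2, an isoform known from lung. The liver-type Cox6a1 stood at 239 FPKM in ΔM and 283 FPKM in WT, and the muscle-type Cox6a2 at 1.26 FPKM in ΔM and 1.49 FPKM in WT. Cox6b1 was at 109 FPKM in ΔM and 105 FPKM in WT, and the testis form Cox6b2 at 0.91 FPKM in ΔM and 0.21 FPKM in WT. Cox8a was at 419 FPKM in ΔM and 435 FPKM in WT, and Cox8b at 0.08 FPKM in ΔM and 0 in WT. Cox7a1, the heart and muscle form, reached 6.03 FPKM in ΔM and 6.91 FPKM in WT, below Cox7a2 with 44.4 FPKM in ΔM and 34.4 FPKM in WT, and below Cox7a2l with 16.4 FPKM in ΔM and 16.2 FPKM in WT. Among the 3 genes of the identical mature c subunit of complex V, Atp5g1 (154 FPKM in ΔM, 137 FPKM in WT) and Atp5g3 (129 FPKM in ΔM, 134 FPKM in WT) were close in level and Atp5g2 was far below both.

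The FPKM limit left out 5 of 92 matching symbols: Cox4i2, Cox6b2 and Cox8b, together with Atp5l (0.91 FPKM in ΔM, 0.72 FPKM in WT) and mt-Nd3 (1.26 FPKM in ΔM, 0.89 FPKM in WT). Just inside it were Atp5s (1.36 FPKM in WT), Atp5k-ps2 (1.47 FPKM in WT) and Cox6a2 (1.49 FPKM in WT). Atp5l and mt-Nd3 encode constitutive subunits, so their low values were set beside the number of sequence copies.

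**Figure D1:**
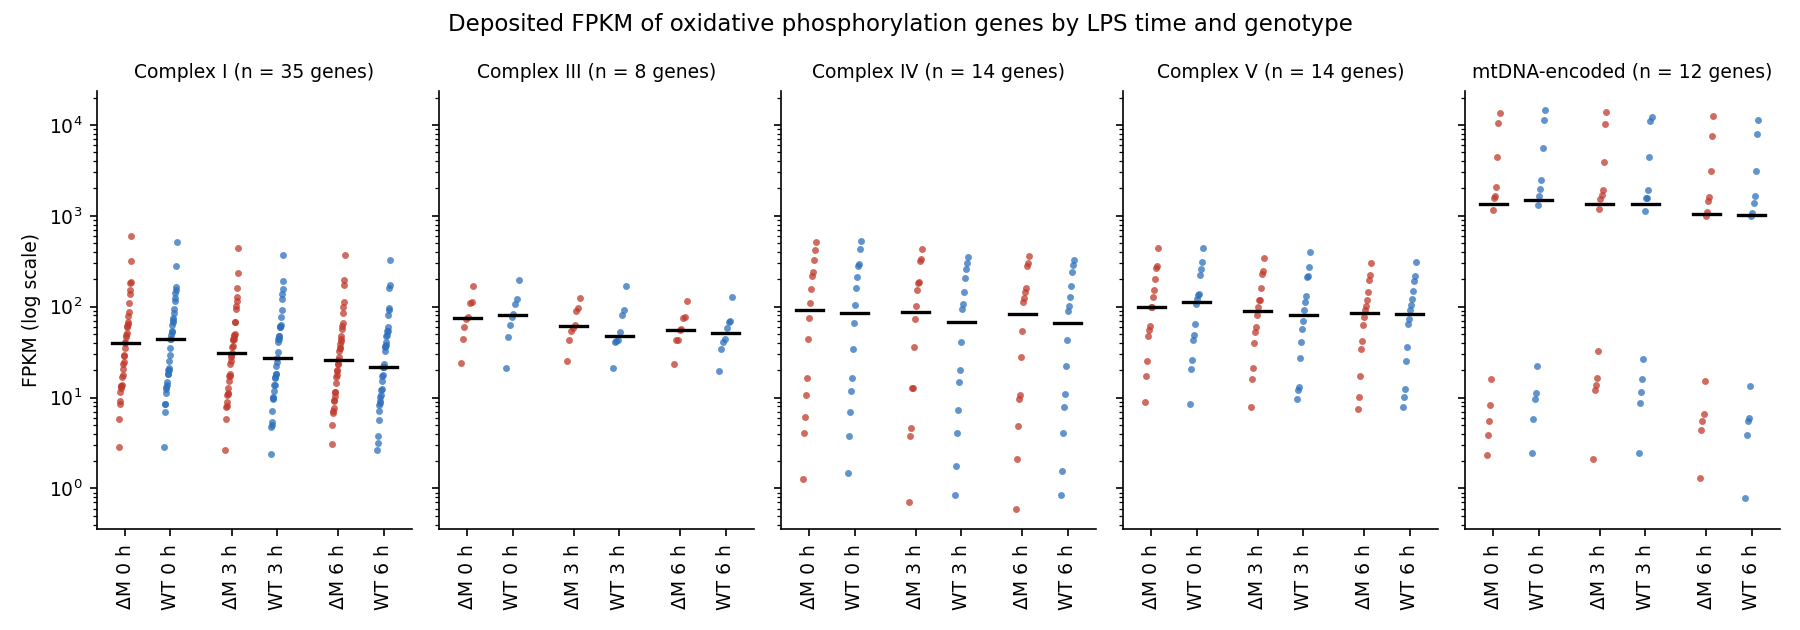
Deposited FPKM (log scale) of 83 oxidative phosphorylation genes in each pooled group, by complex. Points are genes, red for ΔM and blue for WT, and black bars are medians over the genes of a panel. The medians of nuclear complexes lie between 21.5 and 114 FPKM, and the mtDNA-encoded genes fall into a group of at least 985 FPKM and a group of at most 32.5 FPKM.

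The mtDNA-encoded mRNAs split into a set with high FPKM and a set with low FPKM. At 0 h mt-Co1 (catalytic subunit of complex IV) was listed at 13492 FPKM in ΔM and 14415 FPKM in WT, mt-Nd1 (complex I) at 10471 FPKM in ΔM and 11283 FPKM in WT, and mt-Cytb (cytochrome b of complex III) at 4436 FPKM in ΔM and 5570 FPKM in WT. Of the other complex I genes on mtDNA, mt-Nd4 had 2058 FPKM in ΔM and 2470 FPKM in WT, mt-Nd5 had 1640 FPKM in ΔM and 1953 FPKM in WT, mt-Nd2 had 1551 FPKM in ΔM and 1661 FPKM in WT, and mt-Nd6 had 1149 FPKM in ΔM and 1325 FPKM in WT. The second set held the other subunits of complex IV and both mtDNA-encoded subunits of complex V: mt-Co3 with 16.2 FPKM in ΔM and 22.4 FPKM in WT, mt-Co2 with 8.37 FPKM in ΔM and 11.2 FPKM in WT, mt-Atp8 with 5.52 FPKM in ΔM and 9.69 FPKM in WT, and mt-Atp6 with 3.87 FPKM in ΔM and 5.81 FPKM in WT. It also held mt-Nd4l, with 2.32 FPKM in ΔM and 2.45 FPKM in WT, and mt-Nd3.

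The sets differed in how much of each gene has copies in nuclear DNA. Each transcript was searched in 100-base windows, the length of the reads, for exact copies elsewhere in the mouse genome (NCBIM37, which is not the build of the study). All windows of mt-Co2, mt-Co3, mt-Atp6, mt-Atp8 and mt-Nd4l had such a copy, as did 98.8% of those of mt-Nd3. The share was 60.8% for mt-Nd4, 30.8% for mt-Co1, 3.19% for mt-Nd2 and 0 for mt-Nd1, mt-Nd5, mt-Nd6 and mt-Cytb. The main copies of the low set lay beside each other on chromosome 1. That of mt-Nd4l was at chr1:24619243-24619539 and that of mt-Co2 at chr1:24621721-24622404. To show the letters that decide where such a read can be placed, the first 30 bases of 4 mtDNA-encoded mRNAs are given 5′ to 3′, from GENCODE transcripts, with the first codon in capitals.
mt-Co2: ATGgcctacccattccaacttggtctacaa
mt-Co3: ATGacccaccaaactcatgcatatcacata
mt-Cytb: ATGacaaacatacgaaaaacacacccatta
mt-Nd1: GTGttctttattaatatcctaacactcctc
The mt-Co2 bases had 1 exact copy, at chr1:24622375-24622404, and so did those of mt-Co3, at chr1:24620781-24620810, whereas those of mt-Cytb and mt-Nd1 had 0. How reads with several equal positions were counted is not given in the sources used here, and the part of this in the low values was not tested. FPKM of the low set are therefore given only as listed.

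**Figure D2:**
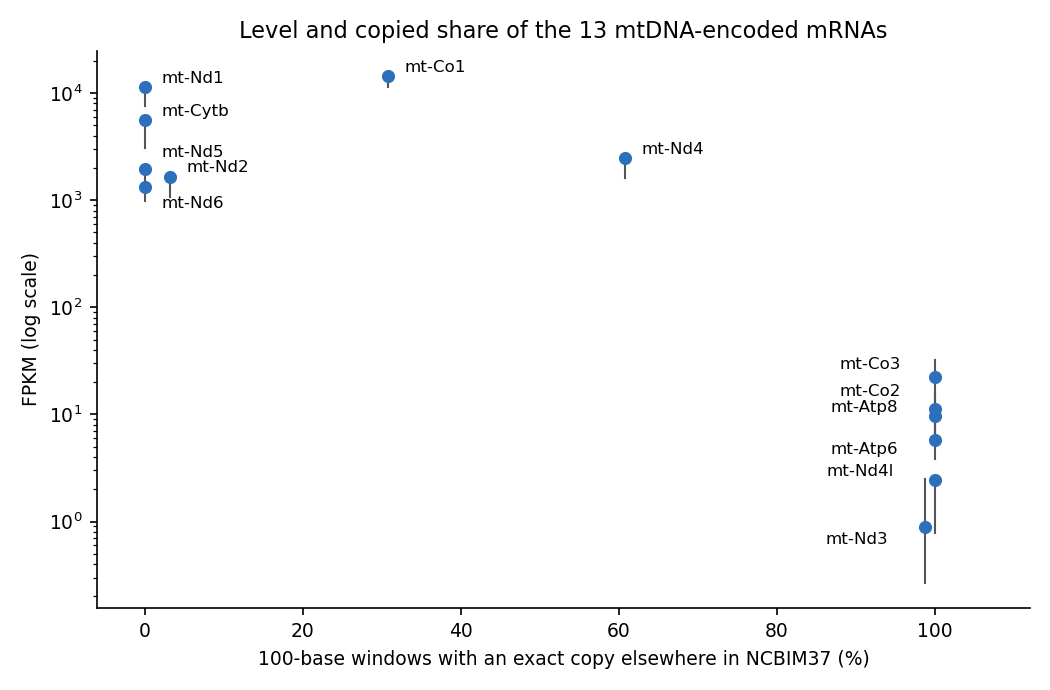
FPKM (log scale) of the 13 mtDNA-encoded mRNAs against the percent of their 100-base windows that have an exact copy elsewhere in NCBIM37. Points are WT at 0 h and lines span the 6 pooled groups. The 6 genes at 98.8% or more lie at or below 32.5 FPKM in every group, and the other 7 at or above 985 FPKM.

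mt-Nd6 is encoded on the opposite strand from mt-Nd5, and their ends overlap in the annotation (GRCm38.p6, MT:11742-13565 and MT:13552-14070). The FPKM ratio of mt-Nd6 to mt-Nd5 was 0.70, 0.70 and 0.69 in ΔM at 0, 3 and 6 h and 0.68, 0.72 and 0.71 in WT. Counting by strand is not stated in the sources used here, so signal of the opposite strand cannot be told apart within mt-Nd6.

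Some nuclear genes also had copies. Exact copies covered at least 25% of windows in 9 of the 71, with a median of 18.0 FPKM in WT 0 h against 63.6 FPKM for the 52 without any. These included Atp5g2 (100%), Cox7c (68.3%), Atp5g1 (67.4%) and Ndufs5 (66.0%), and the share was 83.5% for Atp5l, which the limit left out. Values of these genes are uncertain in the same way.

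After LPS the FPKM of most nuclear subunits was lower than at 0 h, as it was for most genes. All ratios below are log2 ratios of FPKM + 1, which understate changes of low genes. From 0 to 3 h the median of the 71 nuclear genes was −0.25 in ΔM and −0.39 in WT, beside −0.34 in ΔM and −0.39 in WT over all genes with a mean of at least 1 FPKM. From 0 to 6 h it was −0.48 in ΔM and −0.61 in WT, beside −0.55 in ΔM and −0.60 in WT over all genes. Taken relative to the all-gene median, the nuclear median was thus 0.089 at 3 h and 0.064 at 6 h in ΔM, where the direction turned, and −0.00096 at 3 h and −0.0088 at 6 h in WT. At 6 h 20 of 85 members that passed this filter were lower than at 0 h by at least 1.5-fold in ΔM, where 47.8% of all genes were, and 48 of 86 in WT, where 50.9% were. At 3 h these counts were 2 of 85 in ΔM (31.6% of all genes) and 24 of 86 in WT (34.6%), while 4 members in ΔM (11.3% of all genes) and 1 in WT (10.9%) were higher, all of them mtDNA-encoded genes of the low set. From 3 to 6 h 7 of 85 members were lower in ΔM (19.3% of all genes) and 4 of 83 in WT (20.3%), and 0 were higher in ΔM (8.4%) and in WT (9.47%). No member was 1.5-fold higher at 6 h in either genotype (13.1% of all genes in ΔM and 13.5% in WT). At 6 h the count in WT was near the share of all genes, and that in ΔM was below it.

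The complexes kept close together at 6 h, with medians of −0.48 (complex I), −0.44 (III), −0.51 (IV) and −0.45 (V) in ΔM and −0.65, −0.60, −0.64 and −0.54 in the same order in WT. Single genes spread more widely. In complex I, Ndufa1 was listed at 64.5, 49.6 and 38.4 FPKM in ΔM at 0, 3 and 6 h and at 85.8, 41.3 and 32.7 FPKM in WT, the largest decrease of the complex in WT (−1.37). Ndufa6 followed in WT (−1.17), and Ndufb3 (−0.93) and Ndufs7 (−0.90) led in ΔM. At the other end Ndufc1 was at 24.6, 25.3 and 27.9 FPKM in ΔM and 20.2, 18.1 and 21.4 FPKM in WT, and Ndufc2 at 183, 162 and 171 FPKM in ΔM and 142, 157 and 159 FPKM in WT. Ndufs4 was close to level in ΔM as well, with a ratio of 0.08 from 0 to 6 h.

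Among complex III genes Uqcr10, a small accessory subunit, was at 76.5, 53.8 and 42.6 FPKM in ΔM and at 76.8, 41.1 and 34.0 FPKM in WT. Its ratio at 6 h was −0.83 in ΔM and −1.16 in WT. Next came Uqcrc1 in ΔM (−0.55) and Uqcrh in WT (−0.91). By contrast Uqcrfs1, the Rieske iron-sulfur protein, stood at 43.7, 42.7 and 43.2 FPKM in ΔM and 46.3, 41.6 and 41.2 FPKM in WT. Uqcrb (−0.02 in ΔM, −0.11 in WT) and Uqcrc2 (−0.07 in ΔM, −0.12 in WT) were likewise near level.

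In complex IV the largest decreases at 6 h were those of Cox7c (−0.69 in ΔM, −0.90 in WT), of Cox7a2 in ΔM (−0.64) and of Cox8a in WT (−0.85). Cox8a was at 419, 315 and 279 FPKM in ΔM and 435, 262 and 240 FPKM in WT. Cox5a, which contacts the catalytic core, was at 329, 332 and 300 FPKM in ΔM and 293, 303 and 285 FPKM in WT, and Cox6b1 had ratios of 0.04 in ΔM and −0.23 in WT.

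In complex V, Atp5j2 was at 25.2, 20.9 and 17.4 FPKM in ΔM and 26.0, 12.9 and 12.4 FPKM in WT, a ratio of −0.51 in ΔM and −1.01 in WT. Atp5j had −0.73 in ΔM and −0.94 in WT, and Atp5c1, the gamma subunit, −0.62 in ΔM and −0.74 in WT. Atp5f1, a subunit of the peripheral stalk, was the nuclear subunit with the highest ratio in both genotypes (0.31 in ΔM, 0.18 in WT), with 61.8, 60.1 and 76.9 FPKM in ΔM and 64.9, 57.1 and 73.9 FPKM in WT. Within complex V, Atp5o in ΔM (−0.11) and Atp5g2 in WT (−0.12) came next. Outside the complexes, Atp5sl, which is not a subunit of the synthase, had the largest decrease of all members, with 15.2, 5.10 and 3.78 FPKM in ΔM and 14.7, 5.81 and 3.80 FPKM in WT (−1.76 in ΔM, −1.71 in WT).

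The 7 mtDNA-encoded mRNAs of the high set were also lower at 6 h than at 0 h in both genotypes, with a median ratio of −0.36 in ΔM and −0.50 in WT, above the all-gene median in each. The ratios were −0.11 in ΔM and −0.35 in WT for mt-Co1, and −0.53 in ΔM and −0.82 in WT for mt-Cytb, the ends of the range in both genotypes. mt-Co1 was at 13492, 13983 and 12464 FPKM in ΔM and 14415, 12228 and 11339 FPKM in WT, and mt-Cytb at 4436, 3930 and 3077 FPKM in ΔM and 5570, 4386 and 3145 FPKM in WT. In the low set mt-Co2 peaked at 3 h, with 8.37, 16.5 and 6.65 FPKM in ΔM and 11.2, 15.9 and 5.56 FPKM in WT, and so did mt-Co3 and mt-Atp6. Over all 12 genes the median at 6 h was −0.25 in ΔM, or 0.30 relative to all genes, and −0.61 in WT, or −0.01 relative to all genes. The mtDNA-encoded share of summed FPKM was 4.88%, 4.94% and 4.07% in ΔM at 0, 3 and 6 h and 5.55%, 4.93% and 4.08% in WT. That of the nuclear subunits was 1.02%, 0.864% and 0.759% in ΔM and 1.04%, 0.823% and 0.728% in WT.

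Between the genotypes the nuclear subunits were nearly level at 0 h and somewhat higher in ΔM after LPS. The median ratio of ΔM over WT was −0.02 at 0 h, 0.13 at 3 h and 0.15 at 6 h, beside −0.05, −0.02 and −0.03 over all genes. At 0 h no member was higher in ΔM by 1.5-fold (3.16% of all genes were) and 1 of 87, mt-Atp8 of the low set, was lower (5.05%). At 3 h 8 of 84 members that passed the filter were higher (3.33% of all genes) and none was lower (4.53%). At 6 h 2 of 83 were higher (1.79%) and none was lower (3.19%). The share of higher members at 3 h lay above that of all genes, but the share of all genes varied with transcript length, as given below.

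The 8 members higher in ΔM at 3 h were 7 nuclear subunits and a pseudogene. Ndufs5 of complex I was at 29.6 FPKM in ΔM and 13.8 FPKM in WT at 3 h (ratio 1.05). In complex IV, Cox7b was at 73.4 FPKM in ΔM and 40.9 FPKM in WT (0.83), Cox7a2 at 35.9 FPKM in ΔM and 20 FPKM in WT (0.81), Cox7c at 3.81 FPKM in ΔM and 1.78 FPKM in WT (0.79) and Cox6c at 12.8 FPKM in ΔM and 7.33 FPKM in WT (0.73). Atp5j2 had 0.65, Ndufa5 had 0.61 and the pseudogene Atp5k-ps2 had 0.99. Complex III was led by Uqcrh (0.42). The lowest ratio of each complex was that of Uqcrc1 (−0.44), Atp5d (−0.41), Ndufb11 (−0.37) and Cox7a2l (−0.23). In the 8 members past 1.5-fold the ratio of 3 over 0 h was between −0.30 (Cox7a2) and 0.31 (Atp5k-ps2) in ΔM and between −0.96 (Atp5j2) and −0.25 (Atp5k-ps2) in WT. Ndufs5 shows the form of this, with 29.1 and 29.6 FPKM in ΔM at 0 and 3 h and 25.2 and 13.8 FPKM in WT. These ratios reuse the 3 h values by which the 8 members were picked. That choice favours a decrease in WT and a level or higher value in ΔM, so no conclusion is drawn from them.

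At 6 h the members past 1.5-fold were Ndufa5, at 7.06 FPKM in ΔM and 3.19 FPKM in WT (0.94), and Ndufa6, at 19.4 FPKM in ΔM and 12.4 FPKM in WT (0.61), both accessory subunits of complex I. The highest ratios of the other complexes at 6 h were 0.33 for Uqcrh, 0.35 for Cox7b and 0.46 for Atp5j2, and the lowest ratios by complex were −0.22 for Ndufb11, −0.15 for Uqcrc1, −0.22 for Cox6a2, which was under the filter, and −0.16 for Atp5a1. At 0 h the corresponding genes were Ndufc2 (0.36) and Ndufa1 (−0.41), Uqcrb (0.16) and Uqcrc1 (−0.19), Cox7a2 (0.36) and Cox6a1 (−0.24), and Atp5h (0.35) and Atp5o (−0.26).

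The ratios after LPS differed between classes of transcript length, and the shortest members had medians near those of all genes of their length. All genes of a length include the members themselves, so the 2 medians are not independent. At 3 h the median ratio of ΔM over WT was 0.26 for the 24 nuclear members of at most 600 nt, and 0.25 for all 231 genes of that length. It was 0.05 for the 24 members above 600 and up to 1000 nt and 0.06 for all 673 genes of that length. Above 1000 and up to 2000 nt it was 0.08 for 19 members and −0.04 for all 2407 genes. At 6 h the shortest class had 0.25 in members and 0.19 in all 217 genes. At 0 h the same class had −0.03 in members and 0.05 in all 233 genes, and no class of members lay outside −0.07 to 0.00. Of the shortest members, 23 of 24 had a ratio above 0 at 3 h and at 6 h. The medians of all genes of that length, 0.25 and 0.19, also lay above 0, and their share above 0 was not counted. Of the 7 nuclear subunits past 1.5-fold at 3 h, 3 of 24 were in this class, where 12.6% of all genes were higher. In the next class 3 of 23 members that passed the filter were higher, against 6.84% of all genes. Above 1000 and up to 2000 nt it was 1 of 19, Cox7b, against 4.49%. Cox7b lies just above the 1000 nt limit, so a slightly higher limit would move it into the class below. The share of members was thus near that of all genes of the same length in the shortest class. In the next class it lay above that of all genes. All of these counts of members are small. The part of length in the differences between the genotypes was not tested. Lengths and classes were set after the ratios had been seen.

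**Figure D3:**
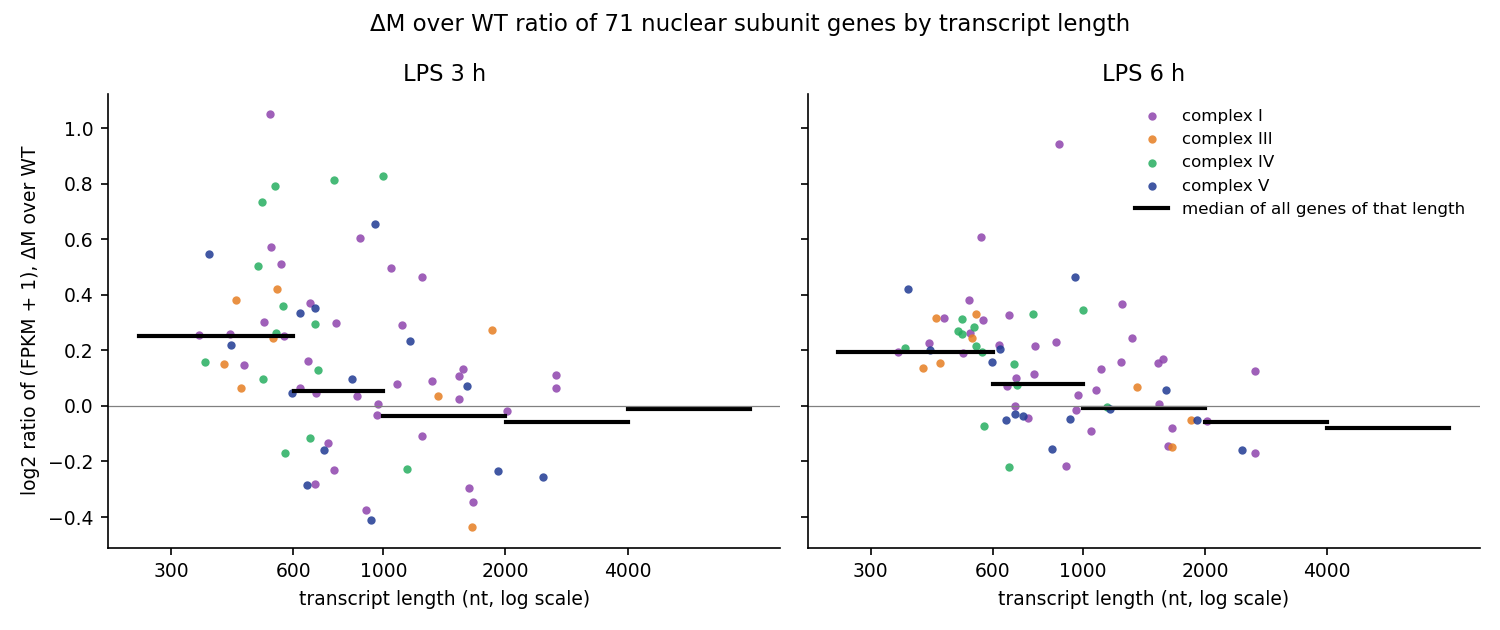
Log2 ratio of FPKM + 1, ΔM over WT, at LPS 3 h and 6 h against transcript length (log scale) for the 71 nuclear subunit genes, coloured by complex. Black bars are medians over all genes of a length class, members included. For at most 600 nt they are 0.25 at 3 h and 0.19 at 6 h, and the short members scatter around these bars.

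The mtDNA-encoded genes were lower in ΔM at 0 h, in 12 of 12 cases. The median ratio of ΔM over WT was −0.26 over all 12, beside −0.05 over all genes. The all-gene median thus also lay below 0, and the share of all genes below 0 was not counted. The FPKM limit was set on WT at 0 h, the lower term of this ratio, and mt-Nd3, which it left out, had a ratio of 0.26. The median was −0.45 over the 5 members of the low set, whose FPKM are given only as listed. It was −0.21 over the 7 genes of the high set, which ranged from −0.33 (mt-Cytb) to −0.10 (mt-Co1). None of these 7 was lower by 1.5-fold. After LPS the high set was level, with a median of −0.01 at 3 h and 0.02 at 6 h. These genes are transcribed as long shared precursors, so they are not independent of each other.

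Decay was read from the slope that the authors fitted to log2 FPKM over 0, 45 and 90 min of actinomycin D, multiplied here by 90 to give the log2 change of the whole chase. Because each library is scaled to its own total, an mRNA that decays more slowly than the bulk of mRNAs has a slope above 0. Values exist for 85 of 87 members (not for mt-Nd4l and Atp5l2-ps). Half-lives are those deposited, with "stable" written from 180 min.

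Nearly all nuclear subunit mRNAs were listed as stable. The median slope at 3 h was 0.04 in ΔM and 0.48 in WT, and at 6 h it was 0.19 in ΔM and 0.35 in WT, beside all-gene medians of −0.13 in ΔM and −0.04 in WT at 3 h and −0.04 in ΔM and −0.08 in WT at 6 h. Slopes above 0 were found for 38 of 71 genes in ΔM and 70 of 71 in WT at 3 h, and for 60 in ΔM and 70 in WT at 6 h. Over all genes the share was 36.1% in ΔM and 45.6% in WT at 3 h and 45.1% in ΔM and 42.3% in WT at 6 h. At 3 h 9 of 85 members, mtDNA-encoded genes included, had a half-life under 180 min in ΔM (22.6% of all genes) and 2 in WT (21.1%). At 6 h these counts were 9 in ΔM (17% of all genes) and 6 in WT (22.5%). Nuclear subunits accounted for only 3 of these entries, all in ΔM at 3 h: Cox7c with 88.8 min, Ndufs5 with 161 min and Cox7b with 168 min. All 3 were stable in WT at 3 h and in both genotypes at 6 h, and Cox7c and Ndufs5 are among the genes with copies.

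**Figure D4:**
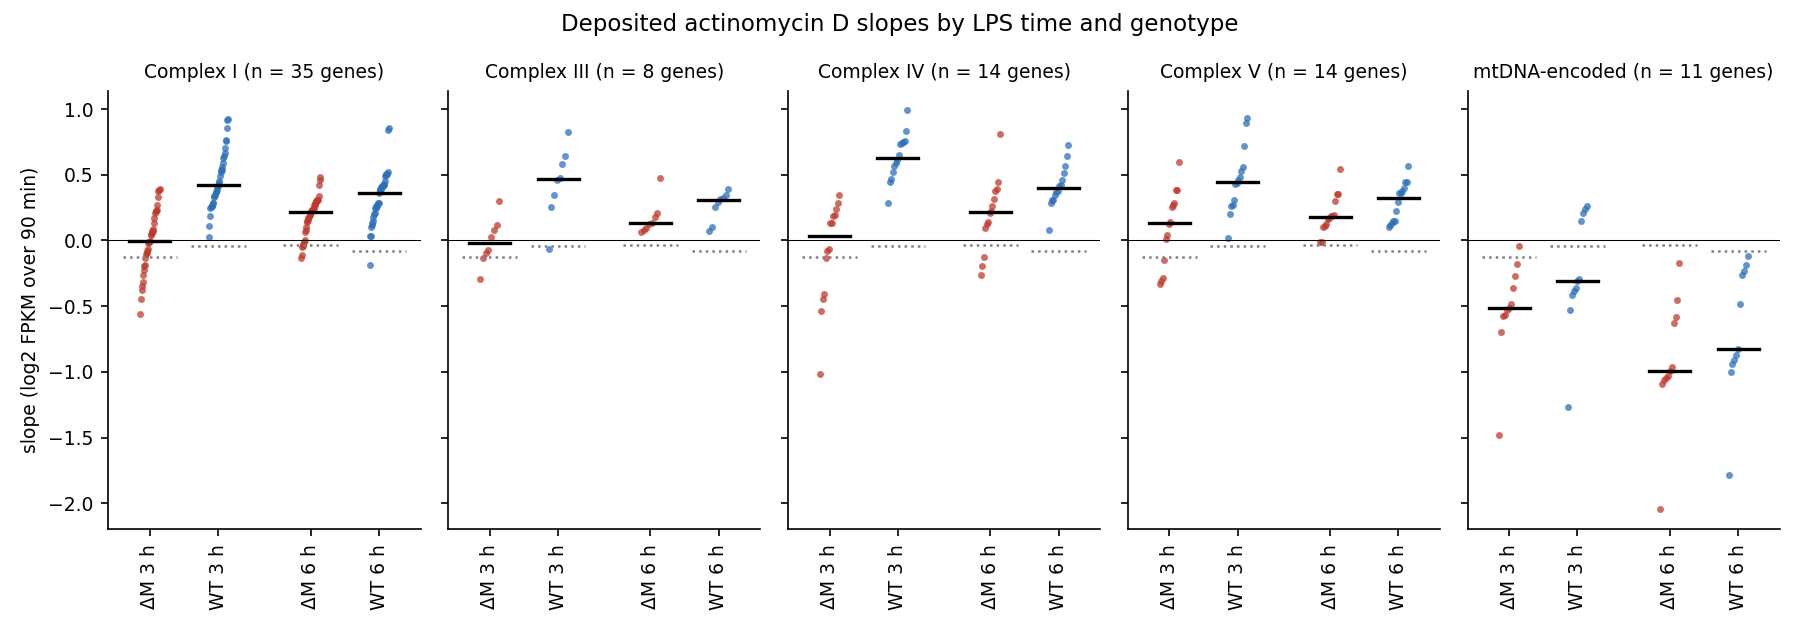
Actinomycin D slopes (log2 FPKM over 90 min) of 82 oxidative phosphorylation genes in the 4 pooled groups with a chase, by complex. Points are genes, red for ΔM and blue for WT, black bars are medians over the genes of a panel and dotted lines the median of all genes in that group. Nuclear medians lie between −0.02 and 0.63, and those of mtDNA-encoded genes between −0.99 and −0.31.

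Slopes of the nuclear genes at 3 h were lower in ΔM than in WT. The median difference, ΔM minus WT, was −0.46 (−0.04 over all genes). Of the 70 nuclear genes that passed the filter, 30 were lower by at least 0.5 (16% of all genes) and 1 was higher (9.35%). Over all members 32 of 83 were lower. By complex the median difference was −0.47 (I), −0.44 (III), −0.65 (IV) and −0.29 (V). Cox7c had a slope of −1.01 in ΔM and 0.47 in WT, Cox7a2 −0.41 in ΔM and 0.99 in WT, Ndufs5 −0.56 in ΔM and 0.76 in WT, and Ndufa5 −0.44 in ΔM and 0.86 in WT. The gene higher in ΔM was Atp5d, the delta subunit, with 0.60 in ΔM and 0.02 in WT. At 6 h the median difference was −0.12 (0.05 over all genes), with 3 of 70 nuclear genes lower (2.27% of all genes) and none higher (4.99%). Over all members 4 of 82 were lower and none higher. The 3 h slopes and the 3 h FPKM share the libraries without a chase, so a low WT value at the start raises both the ratio of ΔM over WT and the WT slope.

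Slopes also differed between length classes, where all genes of a length again include the members. In WT at 3 h the median slope was 0.59 for the 24 nuclear members of at most 600 nt and 0.54 for all 218 genes of that length. In ΔM at 3 h it was −0.07 for these members and −0.06 for all 226 such genes. Members above 1000 and up to 2000 nt had a median slope of 0.07 in ΔM and 0.35 in WT at 3 h and 0.19 in ΔM and 0.27 in WT at 6 h, against −0.06, 0.04, 0.03 and 0.04 over all genes of that length in the same order. At 6 h the shortest members had 0.21 in ΔM and 0.40 in WT, against 0.17 in ΔM and 0.31 in WT over all genes of that length. The 4 members above 2000 nt had 0.10 in ΔM and 0.34 in WT at 3 h and 0.31 in ΔM and 0.39 in WT at 6 h, so that medians of members fell from class to class with length in WT at 3 h and in no other group. In the class up to 2000 nt members had the higher medians in each of the 4 groups. In the shortest class their medians were close to those of all genes of that length at 3 h. The median slope difference at 3 h, ΔM minus WT, was −0.59 in the shortest members, −0.41 in the next class and −0.39 above 1000 nt. It was not computed for all genes of a length. The part of length in the genotype difference was not tested.

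The mtDNA-encoded mRNAs of the high set went the other way, with slopes below 0 in every group except for mt-Co1 in WT at 3 h. Their median slope was −0.57 in ΔM and −0.39 in WT at 3 h, and −1.04 in ΔM and −0.91 in WT at 6 h. Whether actinomycin D stopped transcription of mtDNA was not measured here, so the half-lives of these genes are given only as deposited. mt-Nd2 had the lowest slopes. Its half-lives were 60.6 min in ΔM and 70.9 min in WT at 3 h and 44.0 min in ΔM and 50.5 min in WT at 6 h. mt-Nd1, its neighbour on mtDNA, had 171 min in ΔM and was stable in WT at 3 h, and had 82.3 min in ΔM and 89.5 min in WT at 6 h. Their FPKM ratio without a chase, mt-Nd1 over mt-Nd2, was 6.75, 6.61 and 6.94 in ΔM and 6.79, 7.01 and 7.44 in WT at 0, 3 and 6 h.

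The remaining complex I genes on mtDNA resembled mt-Nd1. At 6 h mt-Nd4 had a half-life of 86.9 min in ΔM and 99.3 min in WT, mt-Nd5 had 84.5 min in ΔM and 95.6 min in WT, and mt-Nd6 had 93.2 min in ΔM and 109 min in WT. mt-Cytb had 90.8 min in ΔM and 104 min in WT. At 3 h the half-lives in ΔM were 158 min for mt-Nd4, 129 min for mt-Nd5, 156 min for mt-Nd6 and 176 min for mt-Cytb, while in WT only mt-Nd5 (171 min) was under 180 min. mt-Co1 had the highest slopes of the high set and was listed as stable in every group. Its slopes were −0.05 in ΔM and 0.24 in WT at 3 h and −0.45 in ΔM and −0.26 in WT at 6 h.

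**Figure D5:**
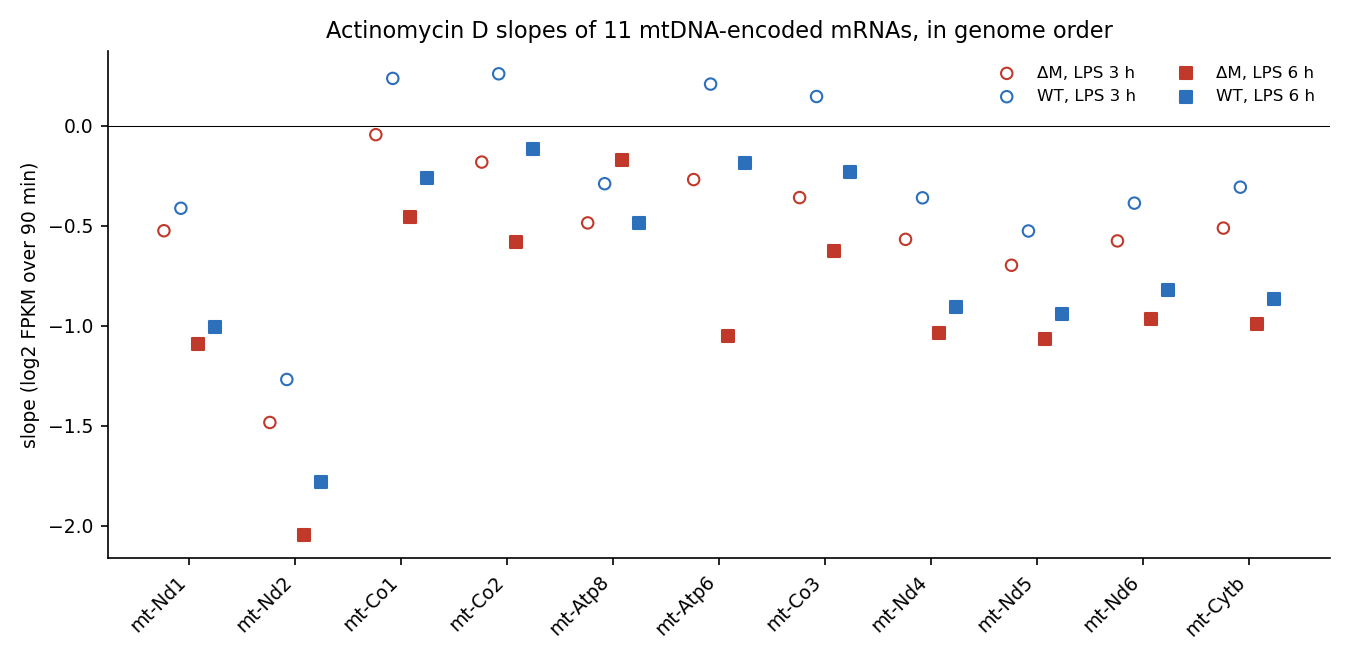
Actinomycin D slopes (log2 FPKM over 90 min) of 11 mtDNA-encoded mRNAs in the order of the mitochondrial genome. Open circles are LPS 3 h and filled squares LPS 6 h, red for ΔM and blue for WT. mt-Nd2 has the lowest slope in all 4 groups, −1.48 and −2.05 in ΔM and −1.27 and −1.78 in WT at 3 and 6 h.

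All 7 genes of the high set had a lower slope at 6 h than at 3 h in both genotypes. The share of all genes with a lower slope was not counted. The median difference, 6 h minus 3 h, was −0.47 in ΔM and −0.51 in WT, against 0.07 in ΔM and −0.04 in WT over all genes and 0.17 in ΔM and −0.16 in WT over the nuclear subunits. Over all members 3 of 83 in ΔM were lower by at least 0.5 (3.44% of all genes) and 7 of 82 in WT (10.1%). Those higher were 12 in ΔM (9.21%) and 0 in WT (7.12%). All 7 also had a lower slope in ΔM than in WT at both times, with median differences of −0.20 at 3 h and −0.13 at 6 h, and none of these reached 0.5. Of the low set, mt-Co2, mt-Co3 and mt-Atp6 had lower slopes at 6 h in both genotypes, and mt-Atp8 did so in WT only (−0.49 at 3 h and −0.17 at 6 h in ΔM, −0.29 and −0.48 in WT).

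The ribosomal RNAs encoded on the same mtDNA had slopes of 0.00 or above. They are not members and were looked up after the slopes had been seen. mt-Rnr1 had slopes of 0.15 in ΔM and 0.33 in WT at 3 h and 0.72 in ΔM and 0.52 in WT at 6 h. mt-Rnr2 had 0.00 in ΔM and 0.13 in WT at 3 h and 1.15 in ΔM and 0.87 in WT at 6 h. At 0 h mt-Rnr1 was listed at 3768 FPKM in ΔM and 3728 FPKM in WT.

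Many promoters of the nuclear genes held motifs known from respiratory genes. RefSeq promoters (GRCm38.p6, 250 bases before to 50 after a start) were matched for 60 of the 71 genes and searched on both strands. The motif of NRF1, a regulator of respiratory genes, was present in 15 (25%) of them and in 5.19% of 27025 genes. Those 27025 are all genes with a RefSeq promoter, whether or not expressed here, whereas members were kept by FPKM. Shares among expressed genes alone were not counted. The ETS motif CCGGAAGT was present in 5 (8.33%, against 4.31%), and the motif of YY1 in 4 (6.67%, against 1.17%). At least 1 of the 3 was in 22 (36.7%, against 9.94%). A match is a description of the letters and no evidence of binding. To show the motif in genes with high ratios of ΔM over WT and in a core subunit without one, 30 bases around it are printed for Ndufs5 (chr4:123718265-123718294, minus strand), Ndufa5 (chr6:24527697-24527726, minus strand), Ndufa6 (chr15:82354249-82354278, minus strand) and Uqcrc1 (chr9:108936668-108936697, plus strand), 5′ to 3′ on the gene's strand with the NRF1 motif, read on either strand, in capitals.
Ndufs5: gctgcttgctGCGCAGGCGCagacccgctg
Ndufa5: tgtgtgagctGCGCAGGCGCaaatctacct
Ndufa6: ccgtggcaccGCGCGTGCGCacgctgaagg
Uqcrc1: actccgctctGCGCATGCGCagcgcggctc
The motif stood in genes at both ends of the ratio at 3 h, Ndufs5 (1.05) and Uqcrc1 (−0.44). Of the 7 nuclear subunits past 1.5-fold at 3 h, Ndufs5 and Ndufa5 had a listed NRF1 site, beside 15 (25%) of the 60 matched genes. These 7 are too few to set against that share. Cox7b, Cox7a2, Cox7c, Cox6c and Atp5j2 had none, and not every promoter was matched. Ndufa6 passed 1.5-fold at 6 h only.

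Among other genes of the pathway, the 4 subunits of complex II had median ratios from 0 to 6 h of −0.49 in ΔM and −0.49 in WT, and none differed between the genotypes by 1.5-fold. Of 38 assembly factors that passed the filter, 24 were lower at 6 h than at 0 h by 1.5-fold in ΔM and 23 in WT, and 2 were higher in ΔM and 3 in WT. Over all genes 47.8% were lower in ΔM and 50.9% in WT, and 13.1% were higher in ΔM and 13.5% in WT, and these shares also stand behind the counts at 6 h for the lists that follow. Sco1 and Sco2, both copper chaperones of complex IV, stood at opposite ends. Sco1 was at 4.01, 6.54 and 19.98 FPKM in ΔM and 3.23, 5.61 and 19.0 FPKM in WT at 0, 3 and 6 h, and Sco2 at 20.8, 5.27 and 1.91 FPKM in ΔM and 18.8, 6.51 and 2.50 FPKM in WT. Between the genotypes the largest ratio of this list was that of Cox17, another copper chaperone, with 0.90 at 3 h and 0.67 at 6 h. Of 13 enzymes of the tricarboxylic acid cycle, 7 were lower by 1.5-fold at 6 h in ΔM and 6 in WT, near the share of all genes, with the lowest ratios those of Idh3a in ΔM (−1.08) and Fh1 in WT (−1.14). Dld had the highest ratio, 0.16 in ΔM and 0.34 in WT.

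Among genes for mtDNA expression and its regulators, 11 of 20 in ΔM and 10 of 21 in WT were lower by 1.5-fold at 6 h, and 2 in ΔM and 1 in WT were higher, so that the lower genes were near the share of all genes. Ppargc1b, a coactivator of respiratory genes, was at 1.94, 11.6 and 1.57 FPKM in ΔM and 1.68, 9.31 and 1.65 FPKM in WT at 0, 3 and 6 h. The related coactivator Pprc1 was at 46.7, 22.1 and 4.27 FPKM in ΔM and 39.1, 19.7 and 4.30 FPKM in WT. Pnpt1, a mitochondrial exoribonuclease, was at 7.91, 16.6 and 27.04 FPKM in ΔM and 7.96, 12.6 and 26.2 FPKM in WT. Polrmt, the mitochondrial RNA polymerase, was at 6.71, 3.56 and 1.81 FPKM in ΔM and 5.53, 3.03 and 1.85 FPKM in WT. Slirp, which binds mitochondrial mRNAs together with Lrpprc, had the highest ratio of ΔM over WT in this list at 3 h (0.81). Of the 4 carriers that passed, 2 were lower by 1.5-fold at 6 h in ΔM and 3 in WT, too few to set against the share of all genes. Among 4 subunits outside the symbol pattern, Usmg5 of complex V was higher in ΔM at each time (ratios of 0.68, 1.05 and 0.69).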

How the data were processed

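Libraries were made with the SENSE mRNA kit and sequenced as 100-base single-end reads. According to the methods and the submitters' processing notes, the authors mapped reads with GSNAP to mm10 and quantified genes with Mix2, and the FPKM they deposited are 1 pooled value per gene for each of 6 groups. The deposited slope of log2 FPKM per min and the half-life, −1 over the slope, cover 4 groups. Versions and handling of multi-mapped reads are not given in the sources used here. The 6 deposited columns of DESeq2 fold changes and FDRs for ΔM against WT hold the authors' own comparisons and were not used. Depth per library is unknown.

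With Python 3.11.15, numpy 2.4.6, pandas 2.3.3 and numba 0.67.0, log2 ratios of FPKM + 1 were computed, and genes with a mean of at least 1 FPKM in the 2 groups compared were called at 1.5-fold. Slopes were multiplied by 90 min and differences called at 0.5. No test was run. The calls and the window search were tested on simulated data. Named genes were all mtDNA-encoded members, extremes of each complex and comparison, the shortest half-lives, paralogue families and symbols near the FPKM limit. Transcript lengths (GENCODE, longest coding sequence, then shortest transcript; 85 members, 88.1 to 88.7% of genes tested), the length classes, the window search and the split of the mtDNA-encoded genes were chosen after values had been seen. Members and gene lists were chosen with earlier results of these data known. Alternatives were a pseudocount of 0.1, a mean of at least 10 FPKM, no FPKM limit, centring on all genes and a half-life limit of 120 min.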

Additional observations from a re-analysis of the deposited data

How the results depend on the processing

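Of 188 alternative values for 64 results, 149 stayed near the main value, 33 moved and 6 turned. Near meant a difference under 0.1 for a median and at most 1.5-fold for a count. A turn was called only where the main median was at least 0.1 in size. A smaller median could thus change sign and still count as near. The nuclear median of ΔM over WT at 0 h did so (−0.025, or 0.027 when centred on all genes). No paired analysis was possible because the deposited columns are pooled and carry no replicate numbers, and for the same reason no replicate could be left out. The 6 turned when ratios were centred on all genes: the nuclear medians for LPS 3 over 0 h (0.089), 6 over 0 h (0.064) and 6 over 3 h (0.0075) in ΔM and 6 over 3 h in WT (0.030), and the mtDNA-encoded medians for 6 over 0 h in ΔM (0.30) and 3 over 0 h in WT (0.27).

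Centring also gave nuclear medians of −0.00096 (3 over 0 h) and −0.0088 (6 over 0 h) in WT, and mtDNA-encoded medians of 0.37 (3 over 0 h) and −0.23 (6 over 3 h) in ΔM and −0.014 (6 over 0 h) and −0.27 (6 over 3 h) in WT. It gave 1 lower member at 3 h and 1 lower and 4 higher at 6 h against 0 h in ΔM, 3 lower and 3 higher at 3 h and 2 lower and 3 higher at 6 h in WT, and 1 higher for 6 over 3 h in WT. Centred slopes had medians of 0.17 (nuclear) and −0.39 (mtDNA-encoded) in ΔM at 3 h, with 7 members lower in ΔM and 1 higher in WT for 6 minus 3 h.

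With a mean of at least 10 FPKM, 5 members were higher in ΔM at 3 h, 1 at 6 h, and 0 lower at 0 h. For 3 over 0 h, 2 were higher and 1 lower in ΔM and 0 higher in WT, where the mtDNA-encoded median was −0.24, and for 6 over 3 h 3 were lower in ΔM and 2 in WT. A pseudocount of 0.1 gave 1 member higher in ΔM at 0 h, 4 lower for 3 over 0 h in ΔM and 1 higher for 6 over 3 h in WT. Without the FPKM limit 2 were higher for 3 over 0 h in WT. A half-life limit of 120 min left 2 members in ΔM and 1 in WT at 3 h. Centring and fewer genes follow from how these alternatives are built, and no other cause was tested. Pooled values limit every statement to these groups, and genes with copied windows stay uncertain.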

Other observations

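Ribosomal protein genes were examined beside the respiratory subunits from lists chosen with earlier results known. At 3 h the median log2 ratio of ΔM over WT was 0.28 over the 82 cytosolic ribosomal protein genes that passed the filter and 0.10 over 80 mitochondrial ribosomal protein genes, with 10 cytosolic and 1 mitochondrial gene higher in ΔM by 1.5-fold and 0 lower. Over all genes the median was −0.02, with 3.33% higher and 4.53% lower. Median slopes of the cytosolic list at 3 h were −0.08 in ΔM and 0.62 in WT, and at 6 h 0.17 in ΔM and 0.30 in WT. Those of the mitochondrial list were −0.11 in ΔM and 0.15 in WT at 3 h, and 0.04 in ΔM and 0.10 in WT at 6 h. From 0 to 6 h of LPS, 55 of 80 mitochondrial ribosomal protein genes were lower by 1.5-fold in ΔM and 50 of 80 in WT, with medians of −0.77 in ΔM and −0.73 in WT. Over all genes 47.8% were lower in ΔM and 50.9% in WT, with medians of −0.55 in ΔM and −0.60 in WT. Mrps6 was the lowest of these in both genotypes, at −2.27 in ΔM and −2.26 in WT.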
